A study of Danio rerio with 24 samples.

Results

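Short unmethylated runs are stretches of up to 3000 bp in which DNA methylation was low in early NCCs, late NCCs, melanophores and iridophores of zebrafish alike. They were found by cutting the genome into tiles of 500 bp and keeping tiles with at least 3 CpGs that had at least 5 reads in every one of the 4 whole-genome bisulfite sequencing (WGBS) libraries. The level of a tile was the mean methylation level of these CpGs. Adjacent tiles below 15% in all 4 libraries were joined, and a tile without data ended a run. This gave 24003 runs of any length, and 23724 of them (98.8%) spanned 1 to 6 tiles and are described here. The 279 longer runs served only for comparison. The short runs held 47292 of the 1742304 tiles with data (2.71%), or 23.6 Mb, and 702087 CpGs (4.32% of the CpGs in tiles with data).

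Bisulfite turns unmethylated cytosines into uracil and leaves methylated ones, so the reads across a CpG split into methylated and unmethylated ones. Early NCCs (15 somites) and late NCCs (24 hpf) are neural crest cells, the migratory embryonic cells from which pigment cells arise, sorted as GFP-positive cells from the Tg(crestinA:EGFP) line, in which a crestin element drives EGFP. Melanophores, the black pigment cells, and iridophores, the reflective pigment cells that hold purine crystals, came from mlphaj120 larvae at 4 to 5 dpf, a melanophilin mutant strain. Cell type, age and strain therefore change together from NCCs to pigment cells and cannot be told apart. Each file is the authors' pool of 2 biological replicates, so there is 1 library per cell type, no value has a spread between replicates, and a test compares the reads of 2 libraries rather than 2 cell types.

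In vertebrates most CpGs are methylated, and methylated CpGs are lost over evolutionary time because deamination turns them into TpG. Stretches that escape methylation in the germ line keep their CpGs and form CpG islands, which often lie at gene starts. Promoters within such islands usually stay unmethylated in every cell type, whether or not the gene is expressed, while distal enhancers tend to lose methylation only where they are active.

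Coverage differed between the libraries. The mean coverage of a covered CpG ran from 24.0 reads in early NCCs to 35.2 in melanophores. Inside the runs the CpGs had on average 33.3 reads in early and 44.6 in late NCCs, and 51.2 in melanophores and 35.8 in iridophores, against 30.3, 38.6, 44.8 and 31.8 in all tiles outside low runs. The reads were thus somewhat denser inside the runs in every library. A median run was covered by 618 CpG reads in early and 932 in late NCCs, and by 1089 in melanophores and 772 in iridophores. The intervals given below are Wilson 95% intervals, which cover counting error only. Reads that span several CpGs enter the sums more than once, which makes the intervals too narrow and the p-values too small.

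The limit of 15% lay in a sparse part of the distribution of tile levels. Taking for each tile the highest of its 4 library levels, 40269 tiles were below 5%, 6075 between 5 and 10%, and 3543 between 10 and 15%. Another 2851 tiles were between 15 and 20%, 2686 between 20 and 25%, and 1668199 (95.7%) at 50% or more. The runs thus come from a class of tiles that is well apart from the methylated bulk, but with a tail that crosses the limit.

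**Figure D1:**
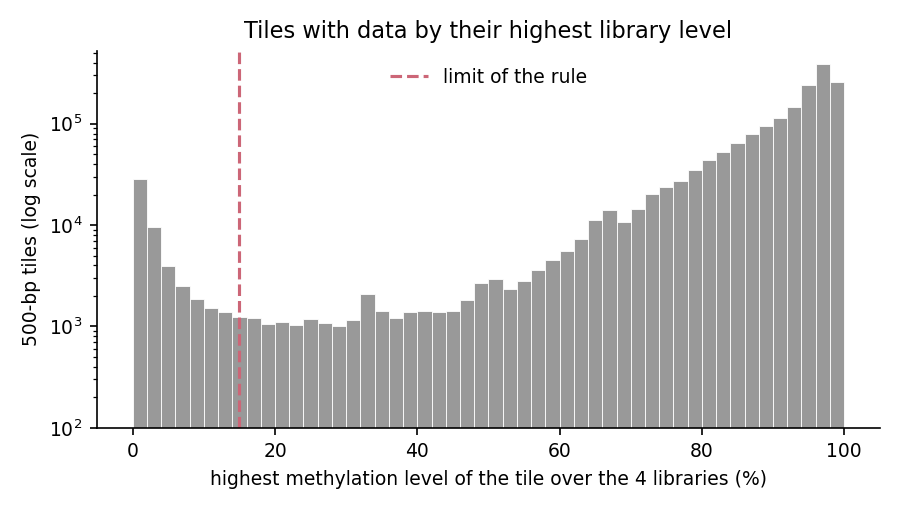
Number of 500-bp tiles (log scale) by the highest methylation level (%) that the tile reached in the 4 libraries. Bars are 2 points wide and the dashed line marks the 15% limit. Tiles pile up near 0 and near 100%, with 40269 tiles below 5% and 1668199 at 50% or more.

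The values around the limit show how the choice works. The run chr11:44867501-44868500 was just inside, with a tile that reached 15.0% in iridophores, while its mean over 32 CpGs was 7.86% in early and 6.16% in late NCCs, and 5.95% in melanophores and 8.79% in iridophores. The run chr21:6857001-6859000 was also just inside, because 1 of its 4 tiles was at 15.0% in both NCC libraries, and its 103 CpGs averaged 3.80%, 3.82%, 3.67% and 3.59% in early NCCs, late NCCs, melanophores and iridophores. The third, chr1:39411501-39412000, had only 5 CpGs and 8.95%, 5.20%, 10.7% and 15.0% in the same order. Just outside were the tiles chr1:7980001-7980500, at 15% in late NCCs and 1.32% in melanophores, chr15:46189001-46189500, at 15% in early NCCs and 0.476% in melanophores, and chr11:32530001-32530500, at 15% in iridophores and 5.36% in early NCCs. These 3 tiles had 4, 10 and 4 CpGs in the order given.

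Most runs were short. There were 8619 runs of 1 tile (36.3%), 9344 of 2 tiles (39.4%), 3897 of 3 tiles, 1211 of 4, 468 of 5 and 185 of 6. The median number of CpGs rose with length from 11 in runs of 1 tile to 27, 44, 63, 82 and 100 in runs of 2 to 6 tiles. Over all runs it was 24 (quartiles 13 and 39, range 3 to 279). Run ends were often set by missing data rather than by methylation, since only 4247 runs (17.9%) had a tile with data on both sides, 11169 (47.1%) on 1 side and 8308 (35.0%) on neither. The length of a run is therefore a lower limit in many cases.

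CpGs were denser in the runs than elsewhere, a property that the rule did not use beyond its minimum of 3 CpGs. A tile in a short run held a median of 13 CpGs (quartiles 7 and 20), the same median as in the longer runs, and tiles outside low runs held 8 (quartiles 5 and 12). The median distance from a covered CpG to the next was 14 bp in short runs and 25 bp over the whole genome. The genome value also takes in stretches with too few well-read CpGs to give a tile, so the distances are not fully alike. Counting also thinly read CpGs, a run had a median of 3.2 CpGs per 100 bp (quartiles 2.45 and 4.07), and the longer runs had 3.47. CpG density and length rose together, from 3 CpGs per 100 bp in runs of 1 tile to 3.77 in runs of 6 tiles. The rise holds within 1 to 6 tiles, since the longer runs had a lower median than runs of 4 to 6 tiles.

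The runs were spread over all 25 chromosomes. Their number per Mb ran from 14.7 on chromosome 18 to 23.3 on chromosome 22, except on chromosome 4, which had 10.1. On chromosome 4 the first 10 Mb had 28.1 runs per Mb and the second 10 Mb had 22.7, whereas the 10-Mb bins between 30 and 70 Mb had 0.8, 1.3, 1 and 1.4. Tiles in those bins held medians of 7 or 8 CpGs, as in the first 30 Mb, but there were fewer tiles with data (7444 to 7841 per bin against 12138 to 13329). The scarcity did not reach the chromosome end, since the last bin, from 70 to 76.6 Mb, had 14.9 runs per Mb and a median of 10 CpGs per tile. The long arm of zebrafish chromosome 4 is known as a repeat-rich, heterochromatic region with few protein-coding genes. Runs also lay close to each other, with a median gap of 9 kb (quartiles 2 and 25 kb) to the nearest run of any length. For 2778 runs (11.7%) the gap was at most 500 bp, and 859 runs were more than 100 kb from the next.

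Inside the runs methylation was far below the limit in all 4 libraries. The following levels were used to choose the runs, so they are a description and were not tested. The median level of a run was 1.04% in early NCCs (quartiles 0.559 and 2.22%), 0.899% in late NCCs (0.521 and 2.01%), 1.05% in melanophores (0.575 and 2.55%) and 1.101% in iridophores (0.532 and 2.80%). Tiles outside low runs averaged 88.6%, 87.5%, 84.1% and 83.6% in the same order. The 4 medians inside the runs lay close together, while the mean outside fell by several points from NCCs to pigment cells.

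In all, 19225 runs (81.0%) were below 5% in every library, 13015 (54.9%) below 2% and 5660 (23.9%) below 1%. At the other end, 1494 runs (6.30%) reached 10% or more in at least 1 library. For that minority "unmethylated" means a low and not an absent level. Unconverted cytosines also read as methylated. At the conversion efficiency given in the study's methods they could make up a share of reads as large as the median level of a run, so levels near the medians, and differences between them, cannot be told apart from incomplete conversion. No methylated read at all was found in 143 runs, but these were small. They had a median of 3 CpGs and 231 reads over the 4 libraries, at which a count of 0 allows a share of up to 1.299%.

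**Figure D2:**
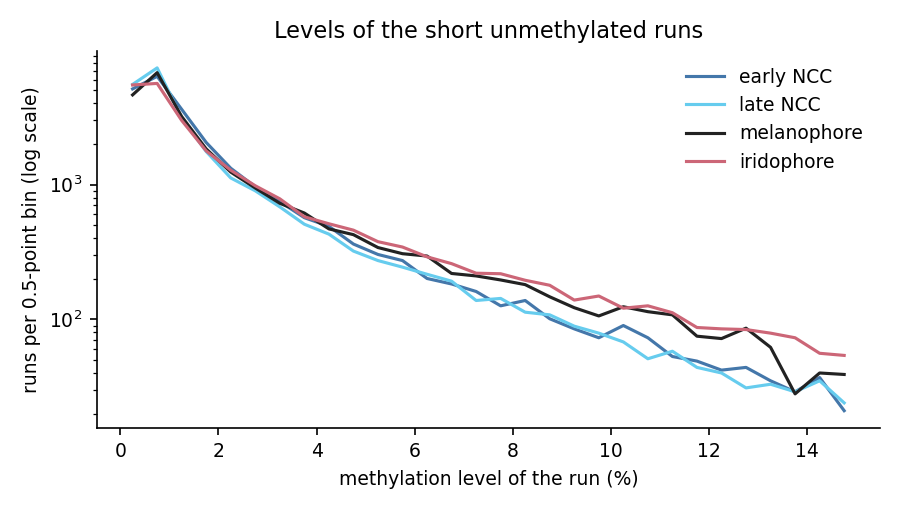
Number of short unmethylated runs (log scale, bins of 0.5 points) by the methylation level of the run (%), with 1 line for each of the 4 pooled libraries. Most runs lie near 1% in each library, and the iridophore line runs above both NCC lines at levels over 5%.

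The quietest runs show how low the level could be. At chr9:53898001-53899000 (20 CpGs) 1 of 595 reads was methylated in early NCCs, 1 of 715 in late NCCs and 2 of 719 in melanophores. In iridophores there was 0 of 496 reads, which allows a share of up to 0.605%. Its left neighbour, the next 500 bp, was at 100%, 100%, 90.6% and 75.1% in early NCCs, late NCCs, melanophores and iridophores. A fully methylated and an almost unmethylated tile thus lay side by side. The run chr22:9493501-9494500 (22 CpGs) had 1 of 425, 1 of 555, 1 of 742 and 2 of 604 methylated reads in the same order of libraries, and chr3:18657501-18658500 (37 CpGs) had 5 of 1198 in late NCCs and 1 of 1234 in melanophores.

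The runs with the most CpGs were similarly low. The richest was chr24:1012001-1015000, with 279 CpGs and 0.842% methylated reads in early NCCs (interval 0.723 to 0.981%, 19468 reads), 0.484% in late NCCs (0.398 to 0.588%), 0.712% in melanophores (0.608 to 0.834%) and 0.652% in iridophores (0.531 to 0.801%). Its left neighbour was at 24.7% and 22.1% in early and late NCCs and at 53.2% and 49.4% in melanophores and iridophores. The range between libraries of the run's mean level was 0.473 points, while the tile beside it was far higher in both pigment cells than in both NCC libraries. The run chr10:74001-77000 (225 CpGs) had 0.609%, 0.583%, 0.399% and 0.403% methylated reads in early NCCs, late NCCs, melanophores and iridophores, between neighbours at 83.0% or more on the left and 63.1% or more on the right in every library. In contrast, chr25:36103501-36106000 (196 CpGs) was at 1.95% in early NCCs (interval 1.67 to 2.29%), but at 4.59% in late NCCs (4.18 to 5.03%), 5.35% in melanophores (4.94 to 5.78%) and 4.24% in iridophores (3.80 to 4.73%). That run was the only one of the 5 richest with a level above 2% in any library.

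Single CpGs within the runs were also mostly clean. No methylated read was seen at 75.3% of the CpGs in early and 71.8% in late NCCs, and at 66.3% in melanophores and 73.3% in iridophores, and this share falls as coverage rises. At 242558 CpGs (34.5%) none of the 4 libraries had a methylated read. Only 1252 CpGs were at 50% or more in all 4 libraries, and 922 of these (73.6%) lay within 100 bp of an end of their run. Of all 702087 CpGs in the runs, 31877 lay in the last 50 bp before an end and 40622 in the 50 bp before that. An end is placed only to within a tile, so methylated CpGs from beyond it can fall inside. CpGs that switched between cell types were rarer still. Only 32 were at 50% or more in both pigment cells and below 20% in both NCC libraries, and 30 showed the reverse. The rule kept the mean of these same CpGs low in every tile and library, so few of them could be at 50% or more. The counts of such CpGs are therefore a description of the chosen runs. They cannot show how often single CpGs switch between cell types.

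Runs of 1 tile and runs with few CpGs varied most. The third quartile of the level in iridophores was 4.97% in runs of 1 tile, 2.29% in runs of 2 and 1.957% in runs of 3. Among the 2801 runs with fewer than 2 CpGs per 100 bp, the median was 1.67%, 1.55%, 1.961% and 2.28% in early NCCs, late NCCs, melanophores and iridophores, and 42.1% of them reached 5% in some library. Among the 5712 runs with 4 to 6 CpGs per 100 bp, the medians were 0.931%, 0.777%, 0.833% and 0.846%, and 11.0% reached 5%. Across the 23724 runs, density and the mean level over libraries had a Spearman correlation of −0.21. Sparse runs have fewer reads, so their levels also carry more counting error.

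CpGs inside the runs that were too thinly read did not enter the rule themselves. They lie in the tiles that the rule chose, and a read that spans several CpGs can cover them and CpGs that entered it. Their low level is therefore partly set by the rule and is no separate support. There were 112714 CpGs inside runs with fewer than 5 reads in at least 1 library. Their summed reads were 6.53% methylated in early NCCs (interval 6.44 to 6.62%), 5.20% in late NCCs (5.16 to 5.25%), 5.78% in melanophores (5.74 to 5.82%) and 5.94% in iridophores (5.89 to 5.99%). The corresponding CpGs of all tiles with data were at 82.8%, 80.7%, 78.7% and 77.9%. The unused CpGs were low in all 4 libraries too, though several times higher than the CpGs that entered the rule (1.28%, 1.21%, 1.41% and 1.51% of summed reads). The 17706 CpGs with fewer than 5 reads in all 4 libraries were higher again, at 13.0%, 12.5%, 13.7% and 13.2%, against 80.01%, 77.6%, 76.4% and 76.0% over all tiles. Whether errors of mapping at poorly covered CpGs add to these levels was not tested.

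Between libraries the runs differed little. The difference of the 4 levels of a run, highest minus lowest, had a median of 1.12 points (quartiles 0.600 and 2.41 points), and 2429 runs (10.2%) reached 5 points. This share was 22.7% in runs of 1 tile and 3.99% in runs of 2. Of the 14347 runs with at least 20 CpGs, 421 reached it. The median change was −0.07 points from early to late NCCs, 0.12 points from late NCCs to melanophores, 0.11 points from late NCCs to iridophores and 0 from melanophores to iridophores.

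Changes of at least 5 points were more often upward from late NCCs to the pigment cells, in a minority of the runs. From late NCCs to iridophores 1032 of the 23724 runs were higher by at least 5 points and 222 lower. From late NCCs to melanophores 674 were higher and 220 lower. From early to late NCCs the numbers were 288 higher and 328 lower, and from melanophores to iridophores 319 higher and 155 lower. A change inside a run is bounded by the limit of 15%, so these counts miss tiles that passed the limit in a pigment cell and left the run. The comparisons share the late NCC library, and these differences were not tested because the same levels chose the runs. Whatever the size of the difference, early NCCs were the highest library in 6866 runs (28.9%) and iridophores in 6448 (27.2%). Melanophores were highest in 5075 (21.4%) and late NCCs in 3954 (16.7%). The upward counts of at least 5 points start from the library that was least often highest, and do not by themselves describe a general rise from NCCs to pigment cells.

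Tiles that left the set on the pigment cell side were few and were about matched in number by tiles that entered it. Of the 52799 tiles below 15% in both NCC libraries, 49887 (94.5%) were also below 15% in both pigment cells. The others were at 15% or more in both pigment cells (1614 tiles), in iridophores alone (863) or in melanophores alone (435). At 50% or more there were 53 in iridophores and 15 in melanophores. Conversely, of the 52875 tiles below 15% in both pigment cells, 2988 (5.65%) were at 15% or more in an NCC library. Of these, 1034 tiles were at 50% or more in both NCC libraries. Moves across the limit were similar in number in the 2 directions, but far more tiles could lose methylation than gain it. The 1034 tiles made up 0.0625% of the 1653086 tiles at 50% or more in both NCC libraries. The 53 and 15 tiles made up 0.1% and 0.0284% of the tiles below 15% in both NCC libraries. The counts also differ in kind, since losses were required in both pigment cells and gains were counted in each pigment cell singly.

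The 5 runs with the widest range between libraries, among runs with at least 20 CpGs, were all highest in iridophores. At chr3:23608001-23608500 (20 CpGs) 0.851% of reads were methylated in early NCCs (interval 0.463 to 1.56%), 1.14% in late NCCs (0.682 to 1.91%), 4.73% in melanophores (3.74 to 5.97%) and 13.6% in iridophores (11.5 to 16.1%). Its right neighbour was at 0.704%, 0.443%, 6.21% and 18.5%, so the low region of the NCCs continued beyond the run and the 15% limit in iridophores ended it. At chr23:36035501-36036500 (22 CpGs) the shares were 0.891%, 0.591%, 6.78% and 12.3% in early NCCs, late NCCs, melanophores and iridophores, and the left neighbour again was low in NCCs (1.33% and 0.782%) and at 15.6% in iridophores.

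The other 3 had the same order of iridophores above the rest. At chr3:23574501-23575000 (21 CpGs) the shares were 1.09%, 0.704%, 5.03% and 13.1% in early NCCs, late NCCs, melanophores and iridophores. At chr22:11122501-11123000 (28 CpGs) they were 1.50%, 0.521%, 3.19% and 13.4%, and the left neighbour stood at 1.18%, 0.988%, 5.32% and 35.6%. Its right neighbour went the other way, at 63.6%, 47.9%, 23.6% and 31.3%, lower in both pigment cells than in both NCC libraries. At chr24:8585001-8585500 (21 CpGs) the shares were 0.744%, 1.90%, 1.61% and 14.0%, so that melanophores stayed with the NCCs. Both neighbours of that run were above the limit only in iridophores, at 23.9% and 18.1%. These 5 runs were picked for this range, so the separation of iridophores from the other libraries in them is no test.

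**Figure D3:**
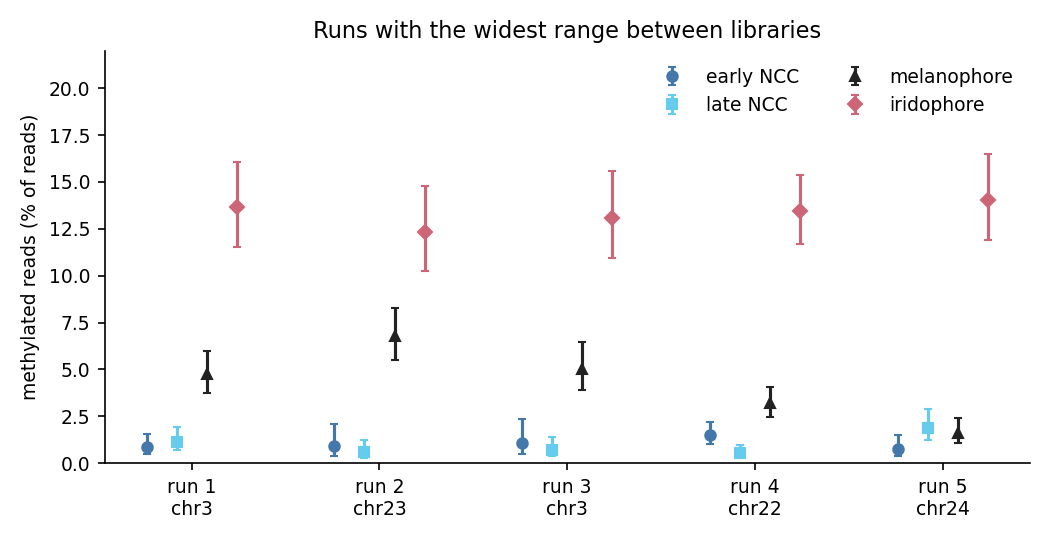
Share of methylated reads (%) in the 5 runs of at least 20 CpGs with the widest range between libraries, in the order in which they are described. Points are the pooled libraries and bars Wilson 95% intervals, which cover counting error only. Iridophores lie between 12.3 and 14.0%, above the other libraries in each run.

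Most runs that were higher in a pigment cell stood alone, and a minority lay together at a few places. Runs at least 5 points above late NCCs were joined when at most 100 kb apart, a choice made after the values were seen. The 1032 such runs in iridophores fell into 814 loci. Of these, 714 held 1 run, while 8 held at least 5 runs each and 103 runs in all. The 674 runs in melanophores fell into 599 loci, of which 554 held 1 run and 3 held at least 5 runs (27 runs in all). The 328 runs that were higher in early NCCs than in late NCCs fell into 307 loci, none with more than 3 runs. Runs are often close to each other in any case, so a group of runs is no finding on its own.

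The iridophore loci below were picked and bounded by runs at least 5 points above late NCCs in iridophores. Their high iridophore counts and medians follow from that choice and are a description. Over all short runs, 1032 of 23724 were that far above late NCCs in iridophores. The largest iridophore locus was chr3:23533501-23642500, in which 25 of 39 short runs were at least 5 points above late NCCs. The median run there was at 0.980% in early and 0.944% in late NCCs, and 3.73% in melanophores and 7.88% in iridophores. Of the 147 tiles in this locus below 15% in both NCC libraries, 51 were at 15% or more in iridophores and 19 in melanophores, with a highest level of 53.4% in iridophores. Of all 52799 tiles below 15% in both NCC libraries, 1.63% were at 15% or more in iridophores only. Another 0.824% were so in melanophores only and 3.06% in both pigment cells. At chr10:21619001-21851000, 22 of 37 runs were at least 5 points higher, with medians of 3.06%, 4.45%, 7% and 10.7% in early NCCs, late NCCs, melanophores and iridophores. At chr14:2025001-2292500 it was 20 of 56 runs, with medians of 2.82%, 4.05%, 8.47% and 8.44%, so both pigment cells were alike there.

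The next loci by number of runs, chr23:35970501-36086500 (12 of 28 runs) and chr12:27024001-27066000 (8 of 14 runs), had late NCC medians of 1.08% and 0.564% and iridophore medians of 6.56% and 7.55%. Melanophores were in between, at 3.64% and 4.16%. The late NCC medians of the loci on chromosomes 3 (0.944%) and 23 were slightly above the median of all short runs (0.899%), and that on chromosome 12 was below it. Those on chromosomes 10 (4.45%) and 14 (4.05%) were well above it.

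Methylation rose steeply at the run ends. In late NCCs the mean CpG level was 0.817% at 450 to 500 bp inside the edge, 5.13% in the last 50 bp inside, 16.4% in the first 50 bp outside and 74.5% at 450 to 500 bp outside. All 4 libraries passed 50% by 250 bp. Every run edge entered these means, also where the tile beyond it was without data. Only 4247 runs had a tile with data on both sides and 8308 had none on either side. The bins outside therefore include well-read CpGs of tiles without data, where the run may have ended for lack of data and not of low methylation. With CpGs of other runs left out, late NCCs were at 79.5% at 500 to 550 bp and 86.3% at 2950 to 3000 bp. The grid of 500 bp places an edge only to within a tile, and the CpGs beyond an edge come from fewer positions close to the run than far from it (21523 CpGs in the first 50 bp and 26241 in the last 50 bp of the 3 kb).

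The libraries changed order across the edge. In the first 50 bp outside, iridophores were 0.995 points and melanophores 0.648 points above late NCCs. A tile with data that was low in both NCC libraries lies outside an edge only where a pigment cell raised it. The order just outside is therefore partly set by the rule. The difference, iridophores minus late NCCs, was −0.170 points at 200 to 250 bp, and with other runs left out −1.82 points at 500 to 550 bp and −3.03 points at 2950 to 3000 bp. Late minus early NCCs was below 0 at each of these distances, with −0.345 points in the first 50 bp and −0.818 points at the far end. Late NCCs were the lowest library at the edge. Early NCCs (16.8%) were also below melanophores (17.1%) and iridophores (17.4%) in the first 50 bp outside, but at 100 to 150 bp early NCCs (37.7%) were above melanophores (37.4%). Deep inside, at 700 to 750 bp from the edge, early NCCs (0.949%) were above melanophores (0.855%) and iridophores (0.887%). Only runs of at least 3 tiles reach that depth, whereas all runs enter the bins at the edge. In runs of 1 tile the median level was lower in early NCCs (1.17%) than in melanophores (1.40%) and iridophores (1.55%). The bins thus do not compare the same runs, and the differences deep inside cannot be told apart from incomplete conversion.

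**Figure D4:**
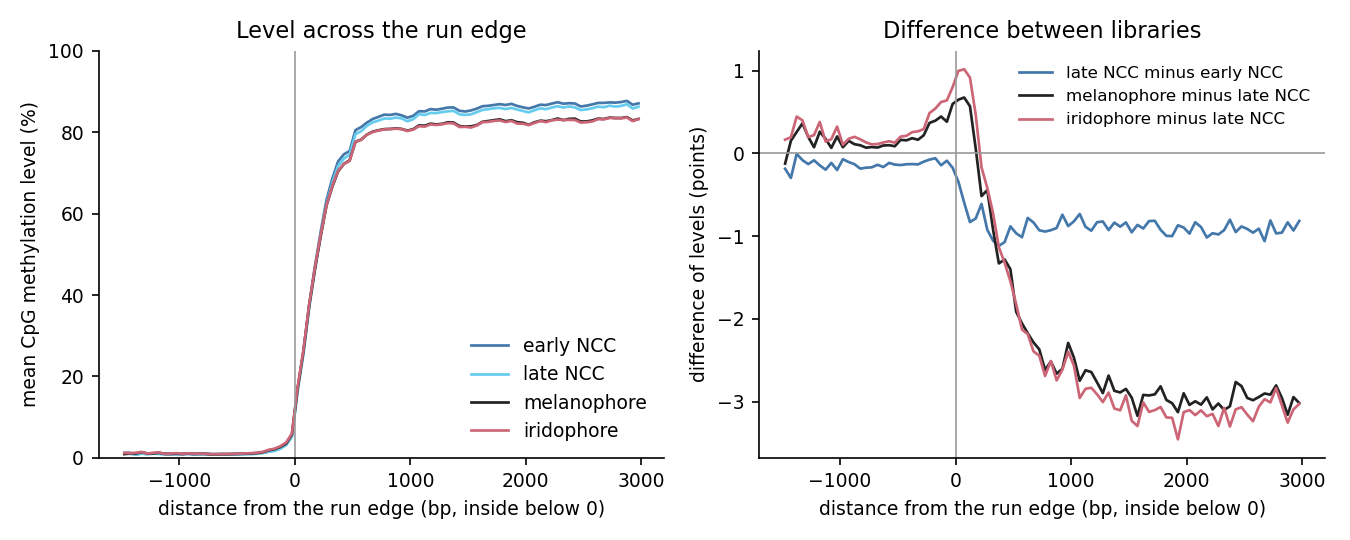
Mean CpG methylation level (%, left) and the difference between libraries in percentage points (right) by distance in bp from the run edge, inside below 0, in bins of 50 bp with CpGs of other runs left out. Edges beside tiles without data are included. Late NCCs rise from 5.13% in the last bin inside to 79.5% at 500 to 550 bp, and iridophores minus late NCCs falls from 0.995 points in the first bin outside to −3.03 points at 3 kb.

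The tiles next to the runs were tested between libraries, but the rule bears on them too, since each had reached 15% in at least 1 library. A tile low in NCCs is therefore a flanking tile only where a pigment cell raised it. There were 19360 flanking tiles with data, with median levels of 63.5% in early and 62.3% in late NCCs, and 59.8% in melanophores and 59.7% in iridophores. Reads summed over the CpGs of a tile were compared with a two-sided Fisher's exact test, with Benjamini-Hochberg adjustment over all 1742304 tiles. A tile was called at an adjusted p under 0.05 and a difference of at least 20 points.

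From late NCCs to melanophores 719 flanking tiles were lower (3.71%), against 4.61% of all tiles, and 317 were higher (1.64%), against 0.241%. From late NCCs to iridophores 712 were lower (3.68%), against 4.57% of all tiles, and 436 were higher (2.25%), against 0.277%. From early to late NCCs 174 were lower (0.899%), against 0.33%, and 84 higher (0.434%), against 0.0767%. Between the pigment cells 167 were lower in iridophores than in melanophores (0.863%), against 1.4% of all tiles, and 210 were higher (1.08%), against 1.32%. The higher counts toward the pigment cells cannot be read against all tiles, because the rule places tiles that gained there and most tiles of the genome are too methylated to gain 20 points. The median difference of a flanking tile was −0.31 points from late NCCs to melanophores and −0.47 points to iridophores, against −1.50 and −2.04 points over all tiles.

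The shares were therefore also taken among tiles at 20 to 80% in late NCCs, a range chosen after the values were seen, in which a tile was kept out of a run by its late NCC level whatever the pigment cells showed. Among the 9781 flanking tiles in that range, 2.16% were higher in melanophores and 2.24% in iridophores, against 1.2% and 1.29% of all tiles in it. Lower calls made up 3.98% and 3.91%, against 5.24% and 5.22%. From early to late NCCs 1.20% were lower and 0.695% higher, against 1.91% and 0.27%, and from melanophores to iridophores 0.716% were lower and 0.685% higher, against 1.02% and 0.922%. In this range flanking tiles thus had a larger share of gains and a smaller share of losses toward the pigment cells than all tiles. From early to late NCCs the share of gains was also larger and that of losses smaller than in all tiles. That comparison is not alike, because late NCCs, which set the range, are its second library but the first toward the pigment cells. Whether the pattern is particular to the step to pigment cells can therefore not be told from these shares. How levels are spread within the range differs between the sets. Over all tiles the counts rise toward its top, from 1163 at 20 to 22% to 46825 at 78 to 80% in late NCCs. Flanking tiles of any level had a first quartile of 27.9% and a median of 62.3% in late NCCs. A tile near 80% has less room to gain 20 points, and more to lose them, than a tile near 20%. The shares therefore do not compare tiles with like room, and the part of this was not tested.

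**Figure D5:**
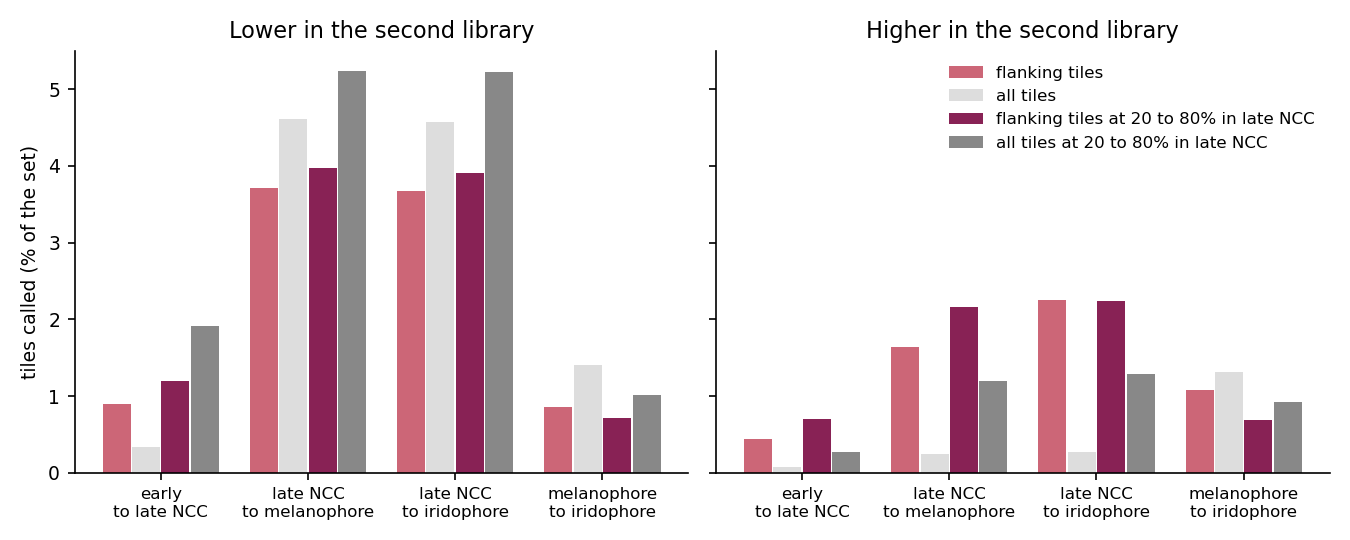
Share of tiles (%) called lower (left) or higher (right) in the second library of each comparison, for tiles next to short runs and for all tiles, each over all levels and among tiles at 20 to 80% in late NCCs. Among tiles at 20 to 80%, higher calls from late NCCs to iridophores were 2.24% of flanking tiles and 1.29% of all tiles, while the shares over all levels also reflect the rule. Within 20 to 80% the sets differ in how levels are spread.

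Of 10986 flanking tiles at 50% or more in both NCC libraries, 12 (0.109%) were below 15% in melanophores alone, 22 (0.2%) in iridophores alone and 10 (0.091%) in both. Among all tiles at 50% or more in both NCC libraries, the shares were 0.047%, 0.164% and 0.0625%, so wide losses were rare in both sets. There were 1243 flanking tiles below 15% in both NCC libraries, each of which by construction was at 15% or more in a pigment cell. Of these, 34 (2.74%) were at 30% or more in melanophores and 74 (5.95%) in iridophores, and 3 (0.241%) and 4 (0.322%) were at 50% or more. Among all 52799 tiles below 15% in both NCC libraries, 0.473% and 0.841% were at 30% or more. At 50% or more the shares were 0.0284% and 0.1%. That set also holds tiles that stayed low in both pigment cells, so the shares are not alike.

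The flanking tiles with the widest calls are named with the run beside them. The tile chr12:8778501-8779000 (6 CpGs) was at 97.1% in early and 82.4% in late NCCs, and 5.56% in melanophores and 13.9% in iridophores (late NCCs to melanophores, Fisher's exact test, adjusted p = 2.41e-71). The adjoining run chr12:8779001-8780500 (58 CpGs) was at 1.35%, 0.401%, 0.502% and 0.521% in the same libraries. The tile chr7:31489001-31489500 (6 CpGs) was at 86.9%, 86.4%, 10.8% and 15.3%, and its run chr7:31487501-31489000 (46 CpGs) stayed at 0.730%, 0.269%, 0.595% and 0.489%. In these 2 places the low region extended outward in both pigment cells.

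Other borders changed mainly in 1 pigment cell type. The tile chr8:9530001-9530500 (10 CpGs) was at 98.7% in early and 95.4% in late NCCs, and 75.4% in melanophores and 19.5% in iridophores (late NCCs to iridophores, Fisher's exact test, adjusted p = 1.94e-136), beside the run chr8:9530501-9532500 (73 CpGs) at 0.852%, 0.484%, 0.651% and 0.400%. The tile chr8:31167501-31168000 (6 CpGs) was at 98.5%, 90.4%, 81.0% and 21.2%, and differed between melanophores and iridophores as well (adjusted p = 4.76e-29, Fisher's exact test). These 2 borders were low in iridophores and methylated in the other 3 libraries, though melanophores were also below both NCC libraries.

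The reverse was seen for melanophores. The tile chr15:23482001-23482500 (10 CpGs) was at 95.4% in early and 83.9% in late NCCs, and 23.9% in melanophores and 83.6% in iridophores (melanophores to iridophores, Fisher's exact test, adjusted p = 3.05e-47), beside the run chr15:23482501-23485000 with 103 CpGs. The tile chr14:217501-218000 (9 CpGs) was at 98.1%, 97.8%, 30.02% and 88.2%, and chr7:73940501-73941000 (8 CpGs) at 91.1%, 94.2%, 33.3% and 90.3%. The runs beside these 3 tiles were below 5% in every library.

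Between the NCC stages the widest calls went both ways. The tile chr20:20711501-20712000 (7 CpGs) was at 81.0% in early NCCs and 18.1% in late NCCs (Fisher's exact test, adjusted p = 2.56e-08), and at 75.2% and 77.0% in melanophores and iridophores. It had 46 reads in early NCCs and 80 in late NCCs. The tile chr16:14795001-14795500 (5 CpGs) was at 2.29% in early NCCs and 60.7% in late NCCs (adjusted p = 5.81e-25, Fisher's exact test), and at 37.4% and 36.5% in the pigment cells. Both rest on few CpGs, and without separate replicates their spread is unknown.

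Gene names could be attached to runs only near 20 metabolic genes, to which the study assigned 48 regions that change in methylation or accessibility within 50 kb of the promoters of genes raised in iridophores. All 20 genes had short runs within 50 kb of their regions, 71 runs in all, which with a median gap of 9 kb between runs says little about these genes. Of the 71 runs, 69 were below 10% and 63 below 5% in every library, where 93.7% and 81.0% of all short runs were. Among the 71, 8 overlapped an assigned region, at 7 genes. Below, a run "at" a gene is one that overlaps a region assigned to it. Whether such a run lies at the gene itself is not known here. This selection was made after values were seen, and the regions were chosen by the study on these same samples, so the counts are a description.

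At psph, the enzyme of the last step of serine synthesis in mammals, the run chr15:510001-511000 (65 CpGs) was at 1.24% in early and 2.06% in late NCCs, and 0.750% in melanophores and 0.835% in iridophores. Its left neighbour was at 21.6%, 21.3%, 10.7% and 4.21%, and its right neighbour at 96.6%, 90.5%, 82.3% and 72.9%. The run was low in all 4 libraries, while both sides were lowest in iridophores. At phgdh, the first enzyme of the same pathway, the run chr9:48486501-48487500 (30 CpGs) was at 3.90%, 4.74%, 2.998% and 1.42% in early NCCs, late NCCs, melanophores and iridophores.

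The runs at 4 further genes of nucleotide, one-carbon, amino acid and energy metabolism were at low levels in all 4 libraries. At mthfd1l, a mitochondrial enzyme of one-carbon metabolism, the run chr20:26651001-26652000 (33 CpGs) was between 0.497 and 0.736% in the 4 libraries. At hprt1l, related to the purine salvage enzyme, chr25:36512501-36513500 (42 CpGs) was between 0.428 and 0.987%. At pck2, the mitochondrial phosphoenolpyruvate carboxykinase, chr24:12794001-12795000 (32 CpGs) was between 0.393 and 0.710%. At gatm, which acts in creatine synthesis, chr18:188001-189000 (19 CpGs) was between 0.344 and 1.33%. The pck2 run was below the first quartile of all runs in early NCCs, melanophores and iridophores.

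At dera, the deoxyribose-phosphate aldolase, 2 runs of 1 tile overlapped assigned regions. The run chr4:12794001-12794500 (5 CpGs) was at 5.29% in early and 7.74% in late NCCs, and 4.76% in melanophores and 6.01% in iridophores. The run chr4:12796501-12797000 (9 CpGs) had 0 methylated of 126 reads in early NCCs, which allows a share of up to 2.38%, and was at 0.701%, 1.56% and 5.68% in late NCCs, melanophores and iridophores, with 252 to 338 reads each.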

How the data were processed

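WGBS of 4 zebrafish cell types was analysed. Per the labels and the study's methods, the authors used Cutadapt for trimming, Bismark for alignment to danRer10 and Picard MarkDuplicates for duplicates, computed methylation of each CpG with Bismark's extractor followed by their own script, and combined 2 replicates (versions are not given in the sources used here). The deposited level is the fraction of methylated reads of a CpG, both strands merged, and the deposited read count is its raw coverage. Methylated counts were taken as level times reads, which was whole at all CpGs to within 0.0044. Incomplete conversion raises low levels.

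The level of a run is the mean over its CpGs with at least 5 reads in all libraries. Coordinates are 1-based danRer10 positions. Tiles were tested with Fisher's exact test (numba 0.67.0, numpy 2.4.6, Python 3.11.15), after a check on simulated data. Regions were named by rule: the 5 runs with most CpGs, the 5 with the widest range and the 5 with the lowest highest level (both with at least 20 CpGs), 3 on either side of the limit, and the 5 widest called flanking tiles with at least 5 CpGs per comparison, of which some are described. Loci and gene neighbours were added after values were seen. The members and lists were chosen with earlier results of these data known. Gene starts, promoter motifs and sequences were not analysed here, since no danRer10 genome or annotation was at hand. Alternatives were other minimums of reads and CpGs, limits of 10 and 20%, levels from summed reads, shifted tiles, bridged gaps and other minimum differences. The other assays of the series were not used here.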

Additional observations from a re-analysis of the deposited data

How the results depend on the processing

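No paired analysis was possible because each file pools both replicates of a cell type, and for the same reason no replicate could be left out. Over 8 alternatives the number of short runs stayed between 22196 (single tiles without data bridged) and 24751 (limit of 20%), the number of tiles between 42806 and 49912, and the median run level between 0.791 and 1.299% in any library. Under each of them late NCCs had the lowest median. Counts of flanking calls follow the minimum difference by construction. At 10 points the flanking tiles called from early to late NCCs were 500 lower (2.58%, against 1.23% of all tiles) and 249 higher (1.29%, against 0.28%). From late NCCs to melanophores they were 1593 (8.23%, against 9.11%) and 1138 (5.88%, against 0.893%). From late NCCs to iridophores they were 1528 (7.89%, against 9.18%) and 1354 (6.99%, against 0.868%). From melanophores to iridophores they were 409 (2.11%, against 2.97%) and 556 (2.87%, against 2.98%). At 30 points they were 56 (0.289%, against 0.0894% of all tiles) and 31 (0.16%, against 0.0217%) from early to late NCCs. From late NCCs to melanophores they were 361 (1.86%, against 2.65%) and 86 (0.444%, against 0.0645%). From late NCCs to iridophores they were 370 (1.91%, against 2.67%) and 117 (0.604%, against 0.0851%). From melanophores to iridophores they were 72 (0.372%, against 0.671%) and 69 (0.356%, against 0.541%). The shares of higher calls also reflect the rule. With at least 10 reads per CpG, fewer tiles were tested (13178 flanking tiles). Of these, 108 were lower in iridophores than in melanophores (0.82%, against 1.48% of all tiles). Thinly read CpGs inside runs, when restricted to fewer than 5 reads in all 4 libraries, were at 13.0%, 12.5%, 13.7% and 13.2% in early NCCs, late NCCs, melanophores and iridophores, and the cause was not tested. At the median coverage of 17 to 29 reads a single CpG level is imprecise, and the level of a run with few CpGs carries more counting error than that of a longer one. The planned description of gene starts and promoter motifs inside runs was not run.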
